A study of Homo sapiens with 21 samples.

Results

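The nuclear genes of oxidative phosphorylation were followed in 4 human breast cancer cell lines treated with THZ1, which binds CDK7 covalently and blocks it. CDK7 is a kinase within TFIIH, one of the general transcription factors of RNA polymerase II. The genes were taken by symbol from the array's annotation: names starting with NDUFA, NDUFB, NDUFC, NDUFS or NDUFV, SDHA to SDHD, names starting with UQCR, CYC1, COX4 to COX8 and names starting with ATP5. This gave 92 of 18132 genes, of which 88 passed the filter on low values. Complex I had 36 subunit genes and 8 genes for assembly factors (NDUFAF1 to NDUFAF8), which the NDUFA pattern takes in. Complex II had 3 genes (SDHA, SDHC and SDHD), complex III 9, complex IV 17 with 14 tested, and complex V 19 with 18 tested.

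MDA-MB-468 and BT-549 are triple-negative breast cancer lines, ZR-75-1 is oestrogen receptor positive (ER+), and T47D is positive for the oestrogen and progesterone receptors. Each line received the solvent DMSO, 50 nM THZ1 or 250 nM THZ1 for 6 h in RPMI-1640 with serum, and the labels name no genetic change in any group. RNA was read on 21 Affymetrix PrimeView arrays, 1 per dose in BT-549 and 2 per dose in each other line. BT-549 values are therefore given without a test. Each subtype is represented by 1 or 2 lines, and the labels do not say whether arrays of a group came from separate cultures, so a p-value here reflects how far these arrays vary, and that variation may be technical only.

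Oxidative phosphorylation takes electrons from NADH at complex I and from succinate at complex II, passes them through coenzyme Q, complex III and cytochrome c to oxygen at complex IV, and uses the proton gradient built on the way to make ATP at complex V. Most subunits are encoded in the nucleus and imported, and the others are encoded in mitochondrial DNA. Assembly factors help to build a complex and are not part of the finished enzyme. Many of the nuclear genes are transcribed at high levels from promoters with sites for ETS factors, NRF1 and YY1.

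The values are linear probe set intensities, each gene being represented by its brightest probe set. The mean intensity of an array lay between 326.4 and 342.8, and its 75th percentile between 140.3 and 231.2, lowest on the ZR-75-1 arrays at 250 nM. With DMSO, ESR1 read 435 to 927.5 in ZR-75-1 and T47D and 18.4 to 32.6 in MDA-MB-468 and BT-549. GATA3 and FOXA1 read 3505 to 5289 in ZR-75-1 and T47D, 262 to 331 in MDA-MB-468, and 139 and 15.1 in BT-549. KRT8 and KRT18 read 6179 to 10050 in MDA-MB-468, 8854 to 17760 in ZR-75-1 and T47D, and 89.2 and 424 in BT-549. KRT5 and EGFR were highest in MDA-MB-468, and VIM and COL3A1 in BT-549. PTPRC, a defining marker of white blood cells, lay between 9.09 and 22.6 on these arrays. Of the other immune markers looked at, CD3E lay between 29.9 and 37.9 and CD68 between 48.3 and 84.2. CD14 read 284 and 298 in MDA-MB-468 and 22.1 to 28.9 in the other lines. One label field gives MDA-MB-468 as the source of the T47D and ZR-75-1 samples; groups were taken from titles and the cell line field, which the markers fit. Fewer transcribing cells and less RNA per cell cannot be told apart in such bulk samples.

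At 250 nM, the members were for the most part higher than with DMSO, by small amounts, while most changed genes of the array were lower. In MDA-MB-468, 66 of 88 members were higher and 2 lower at a limma adjusted p under 0.05, against 9.54% of all 12644 genes tested higher and 30.3% lower. ZR-75-1 had 71 members higher and 4 lower, where 9.93% of all genes were higher and 42.8% lower. T47D had 45 higher and 2 lower, against 9.61% and 33.7%, and the first of these counts was 29 without T47D DMSO array 2. The shares are for all arrays, and none is given for the fit without that array. The median log2 change over the 88 members was 0.24 in MDA-MB-468, 0.30 in ZR-75-1 and 0.17 in T47D. Over all genes tested it was -0.07, -0.18 and -0.08.

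In BT-549, 81 of 88 members were above their DMSO value at 250 nM, against 50.6% of all genes, with a median change of 0.22 against 0.0056. No member changed 2-fold there, against 0.182% of all genes higher and 8.94% lower by that much. With the 4 lines as units, 73 members were higher and 2 lower at 250 nM, against 9.48% and 29.9% of all genes. Counted by array, both treated arrays lay above both DMSO arrays for 76 members in MDA-MB-468, 74 in ZR-75-1 and 65 in T47D, against 23.9%, 19.2% and 26% of all genes. Both lay below for 3, 4 and 7 members, against 42.3%, 52% and 46.4%. The same 44 members (50% of those tested) were higher in all 3 replicated lines, compared with 3.59% of all genes. These comprised 21 complex I subunits, 1 complex I assembly factor, 1 complex II, 4 complex III, 7 complex IV and 10 complex V genes. Without regard to a test, 71 members lay above DMSO in all 4 lines, against 16.9% of all genes, and the share was 2 of 8 for the complex I assembly factors. Member counts rest on the brightest probe set of each gene. Of 45 other probe sets with means of at least log2 10, 44, 43, 44 and 40 rose in MDA-MB-468, BT-549, ZR-75-1 and T47D. In the same order, 30, 31, 26 and 22 of 34 at log2 7 to 10 rose, and 18, 24, 20 and 17 of 39 under log2 7.

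**Figure D1:**
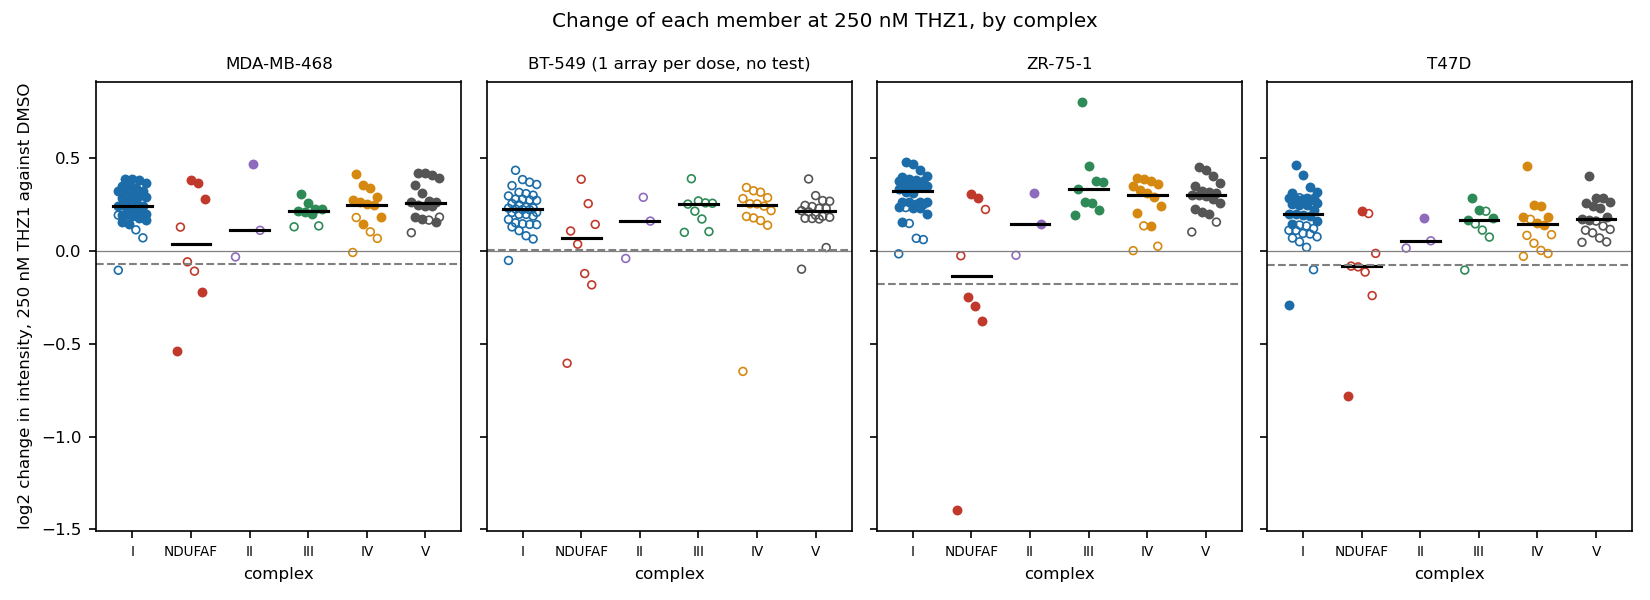
Log2 change in intensity at 250 nM THZ1 against DMSO for each of the 88 members tested, by complex (I, subunits; NDUFAF, complex I assembly factors; II to V), in each line. Filled points passed limma at an adjusted p under 0.05, open points did not or, in BT-549, were not tested; black bars are group medians and the dashed line is the median of all genes. Most subunits of complexes I, III, IV and V lie above 0, whereas the assembly factors spread from 0.38 down to -1.40 in the 3 tested lines.

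Members have bright probe sets, with a median over arrays of log2 11.53 against 7.41 for all genes tested, and bright probe sets in general were higher at 250 nM. Among the 266 genes with a mean of log2 12 or more, 30 of them members, the median change was 0.16, 0.14, 0.24 and 0.17 in the order MDA-MB-468, BT-549, ZR-75-1, T47D. The 30 members there had medians of 0.24, 0.21, 0.32 and 0.17. Between log2 10 and 11, where 19 of 796 genes were members, all genes had medians of 0.08, 0.056, 0.015 and 0.00084 and the members 0.27, 0.28, 0.26 and 0.19. The member median thus lay above that of all genes of like brightness in these ranges, except in the brightest range in T47D, where both were 0.17. The part of brightness in the result was not tested.

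**Figure D2:**
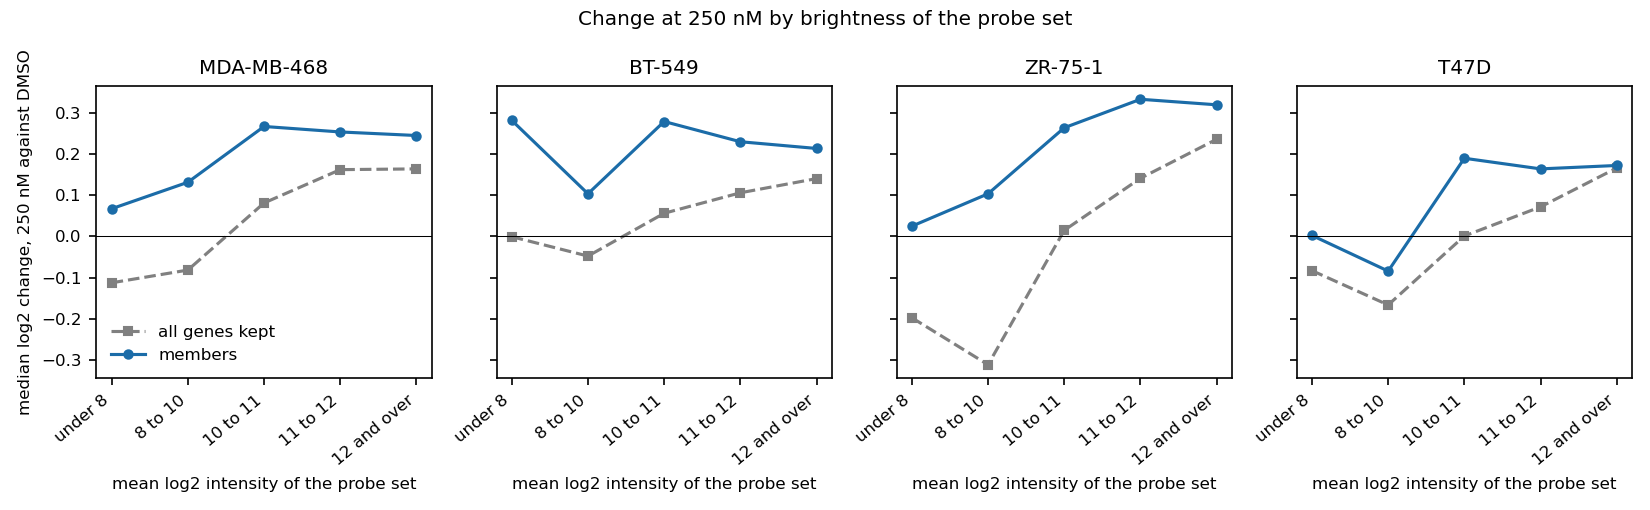
Median log2 change at 250 nM against DMSO for all genes tested (grey squares) and for the members among them (blue circles), in 5 ranges of mean log2 probe set intensity, in each line. The median of all genes is highest in the 2 brightest ranges in each line, and the 2 dimmest ranges hold only 3 and 10 members.

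The counts depended on how arrays were set against each other, since the deposited values were used unscaled. Centring every array on its median moved the median of all genes from -0.07, -0.18 and -0.08 to 0.14, 0.08 and 0.05 in these 3 lines at 250 nM, in that order. It gave 77, 81 and 60 members higher and 1 lower in each, with 27.3%, 28.4% and 19.2% of all genes higher. Quantile normalization gave 49, 55 and 31 members higher and 1, 2 and 3 lower, with 24.2%, 32.8% and 26.3% of all genes higher. A 2% trimmed mean gave 77, 80 and 72 higher and 1, 1 and 2 lower. No share of all genes higher is given for the trimmed mean, and no share lower for any of these scalings. Those counts are therefore not read against all genes.

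Promoter letters are shown for 4 members that stand for the main patterns: ATP5MK and UQCR11, higher in all 3 lines, SDHA, called in 1 line only, and NDUFAF4, lower in all 3. The sequences are RefSeq's on GRCh38.p14, the 250 bases before the annotated start, 5′ to 3′ on the gene's strand. Capitals mark matches on either strand to the ETS letters CCGGAAG or the NRF1 motif.
ATP5MK (chr10:103396476-103396725, minus strand): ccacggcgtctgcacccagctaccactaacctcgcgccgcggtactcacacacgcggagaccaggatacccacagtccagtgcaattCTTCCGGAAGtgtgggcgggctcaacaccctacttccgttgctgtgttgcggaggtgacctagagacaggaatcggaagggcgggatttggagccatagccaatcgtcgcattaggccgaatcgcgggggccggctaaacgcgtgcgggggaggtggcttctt
UQCR11 (chr19:1605463-1605712, minus strand): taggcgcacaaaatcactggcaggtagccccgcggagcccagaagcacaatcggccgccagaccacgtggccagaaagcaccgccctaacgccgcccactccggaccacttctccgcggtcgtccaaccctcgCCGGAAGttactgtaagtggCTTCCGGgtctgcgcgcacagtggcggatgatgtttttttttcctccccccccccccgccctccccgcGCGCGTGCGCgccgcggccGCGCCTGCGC
SDHA (chr5:218070-218319, plus strand): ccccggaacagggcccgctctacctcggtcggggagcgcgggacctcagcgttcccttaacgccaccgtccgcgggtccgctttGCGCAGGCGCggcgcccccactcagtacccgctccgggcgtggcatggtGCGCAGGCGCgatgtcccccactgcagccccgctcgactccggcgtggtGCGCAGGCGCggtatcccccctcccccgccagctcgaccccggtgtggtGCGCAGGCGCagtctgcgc
NDUFAF4 (chr6:96897892-96898141, minus strand): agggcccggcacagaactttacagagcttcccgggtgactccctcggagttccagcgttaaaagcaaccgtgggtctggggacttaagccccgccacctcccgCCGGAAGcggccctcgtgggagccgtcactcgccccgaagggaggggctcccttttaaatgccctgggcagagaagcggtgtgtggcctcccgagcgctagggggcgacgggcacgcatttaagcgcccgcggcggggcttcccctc

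ATP5MK held 2 overlapping ETS matches, UQCR11 2 ETS and 2 NRF1 matches, SDHA 4 NRF1 matches and NDUFAF4 1 ETS match. Over the 300-base windows around the start that RefSeq's table gives, 75 of 92 members had a sequence. The ETS letters were in 20 of these (26.7%), against 10.7% of all 27305 promoters and 18.2% of the 10318 promoters of tested genes. The NRF1 motif was in 17 members (22.7%), against 6.3% and 11.3%, and the YY1 motif in 3 (4.0%), against 0.9% and 2.0%. Both strands were searched and overlapping matches counted. The median 4-line change at 250 nM was 0.26 for members with the ETS letters and 0.23 for those without, and 0.22 and 0.23 for NRF1. A match is a description of the letters and not a binding site.

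Complex I, which oxidises NADH, had 30 of 36 subunit genes higher in MDA-MB-468, 31 in ZR-75-1 and 22 in T47D, and 1 lower, NDUFV3 in T47D. Of all genes, 9.54%, 9.93% and 9.61% were higher and 30.3%, 42.8% and 33.7% lower in these lines. The medians of the subunit genes were 0.24, 0.32 and 0.20. In BT-549, 35 of the 36 subunit genes were above DMSO, against 50.6% of all genes, with a median of 0.23. The 21 that were higher in all 3 lines were the core subunits NDUFV1 and NDUFS7, and the accessory subunits NDUFS4, NDUFS5, NDUFS6, NDUFA1, NDUFA2, NDUFA3, NDUFA7, NDUFA9, NDUFA10, NDUFA11, NDUFA12, NDUFA13, NDUFB2, NDUFB7, NDUFB8, NDUFB9, NDUFB10, NDUFB11 and NDUFC1.

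NDUFV1 encodes the flavoprotein that takes electrons from NADH. Its intensity in MDA-MB-468 was 1506 and 1532 with DMSO, 1697 and 1657 at 50 nM and 1972 and 1828 at 250 nM. ZR-75-1 read 876 and 907 with DMSO, 979 and 886 at 50 nM and 1149 and 1208 at 250 nM, and T47D 913 and 923 with DMSO, 1149 and 1096 at 50 nM and 1268 and 1263 at 250 nM. In BT-549 the series was 866, 1026 and 1063. Both arrays at 250 nM lay above both DMSO arrays in the 3 lines, and in MDA-MB-468 and T47D both arrays at 50 nM did so too. The log2 changes at 250 nM were 0.32 ± 0.06 in MDA-MB-468, 0.40 ± 0.06 in ZR-75-1 and 0.46 ± 0.06 in T47D (SE, n = 2 arrays per group), with limma adjusted p of 0.000380, 2.49e-05 and 1.04e-05. It was the complex I subunit with the highest change in T47D, as NDUFA3 was in MDA-MB-468 and NDUFB2 in ZR-75-1.

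NDUFB2, an accessory subunit of the membrane arm, read 3118 and 3263 with DMSO and 4269.8 and 4069 at 250 nM in MDA-MB-468. In ZR-75-1 it read 3386 and 3579 with DMSO and 4893 and 4815 at 250 nM, in T47D 2332 and 2210.3 with DMSO and 3192 and 2846 at 250 nM, and in BT-549 3149 with DMSO and 3739.5 at 250 nM. The groups did not overlap in any replicated line, with changes of 0.39 ± 0.07, 0.48 ± 0.07 and 0.41 ± 0.07. NDUFA3, another accessory subunit, changed by 0.39 ± 0.05, 0.32 ± 0.05 and 0.28 ± 0.05 in the same order, and by 0.43 in BT-549. These calls were kept on leaving out each array in turn and under each scaling.

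NDUFB8, a membrane arm subunit often used as a protein marker of complex I, was higher by 0.19 ± 0.05, 0.47 ± 0.05 and 0.31 ± 0.05 and by 0.22 in BT-549. A second, dimmer probe set gave 0.36, 0.39 and 0.040. The NDUFB8 call in MDA-MB-468 was lost without DMSO array 1 (0.19) and under quantile normalization (0.14). NDUFS1, the large iron-sulphur subunit, was called higher in MDA-MB-468 (0.28 ± 0.07) and ZR-75-1 (0.23 ± 0.07), and in T47D its change was 0.090 ± 0.07 (adjusted p = 0.292). The lines had another order on 3 other probe sets of like brightness, which gave 0.11, 0.14 and 0.13 in MDA-MB-468, 0.16, 0.22 and 0.20 in ZR-75-1 and 0.081, 0.22 and 0.28 in T47D. The MDA-MB-468 call ended without DMSO array 1 (0.19), and the ZR-75-1 call without DMSO array 2 (0.16) or 250 nM array 1 (0.20). NDUFV3, a small flavoprotein-associated subunit, had the lowest change of the complex I subunits in every replicated line: -0.10 ± 0.06, -0.016 ± 0.06 and -0.29 ± 0.06. T47D read 1290.3 and 1208 with DMSO and 974 and 1072 at 250 nM, without overlap and with an adjusted p of 0.000804. In ZR-75-1 NDUFV3 turned to 0.23 and 0.19 with median centring and the trimmed mean, and in T47D the call ended with median centring (-0.17). Complex I subunits higher in no line also included NDUFA5, NDUFA8, NDUFAB1 and NDUFV2.

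COXFA4 and COXFA4L2, as the annotation names the genes formerly NDUFA4 and NDUFA4L2, fall outside the pattern and were not counted. COXFA4, now known as a complex IV subunit, was higher at 250 nM by 0.25 ± 0.05, 0.31 ± 0.05 and 0.31 ± 0.05 in the order MDA-MB-468, ZR-75-1, T47D. COXFA4L2 had group means of 39.6 to 51.5 and did not pass the filter.

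Complex II, succinate dehydrogenase, also works in the tricarboxylic acid cycle and differed among its genes. SDHC, a membrane anchor, read 1169.7 and 1225 with DMSO, 1496 and 1424 at 50 nM and 1649.6 and 1657 at 250 nM in MDA-MB-468, where the 3 groups did not overlap and were ordered by dose. ZR-75-1 read 2916 and 3045 with DMSO and 3732 and 3659 at 250 nM, T47D 3189.6 and 3126 with DMSO and 3740.2 and 3402 at 250 nM, and BT-549 1074, 1318 and 1199.5 across the doses. Its changes were 0.47 ± 0.06, 0.31 ± 0.06 and 0.18 ± 0.06, all called. The first rests on 1 probe set, since 3 others of SDHC with means above log2 10 changed by 0.25, 0.27 and 0.23 in MDA-MB-468, 0.27, 0.38 and 0.27 in ZR-75-1 and 0.20, 0.17 and 0.26 in T47D. The T47D call (adjusted p = 0.0184) ended without either DMSO array (0.19 and 0.16) or without 250 nM array 1 (0.11), and under quantile normalization (0.11).

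SDHA, the flavoprotein that oxidises succinate, read 2337 and 2444 with DMSO, 2718 and 2602 at 50 nM and 2333 and 2340.4 at 250 nM in MDA-MB-468. In ZR-75-1 it read 708 and 717 with DMSO and 794 and 779 at 250 nM, in T47D 2253 and 2080.4 with DMSO and 2152 and 2224 at 250 nM and in BT-549 2099 with DMSO and 2040.0 at 250 nM. The changes were -0.033 ± 0.05, 0.14 ± 0.05 and 0.015 ± 0.05. Only the ZR-75-1 value was called (adjusted p = 0.0316), and it was lost without any 1 of the 4 ZR-75-1 arrays concerned (0.13 to 0.16). A second SDHA probe set of like brightness (mean log2 10.5) gave -0.030, 0.076 and 0.16, so the order of the lines depends on the probe set. SDHD, the other membrane anchor, changed by 0.11 ± 0.08, -0.024 ± 0.08 and 0.054 ± 0.08, with no call, and by 0.29 in BT-549. In MDA-MB-468 SDHD was called without DMSO array 2 (0.26), with median centring (0.31) and with the trimmed mean (0.20).

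**Figure D3:**
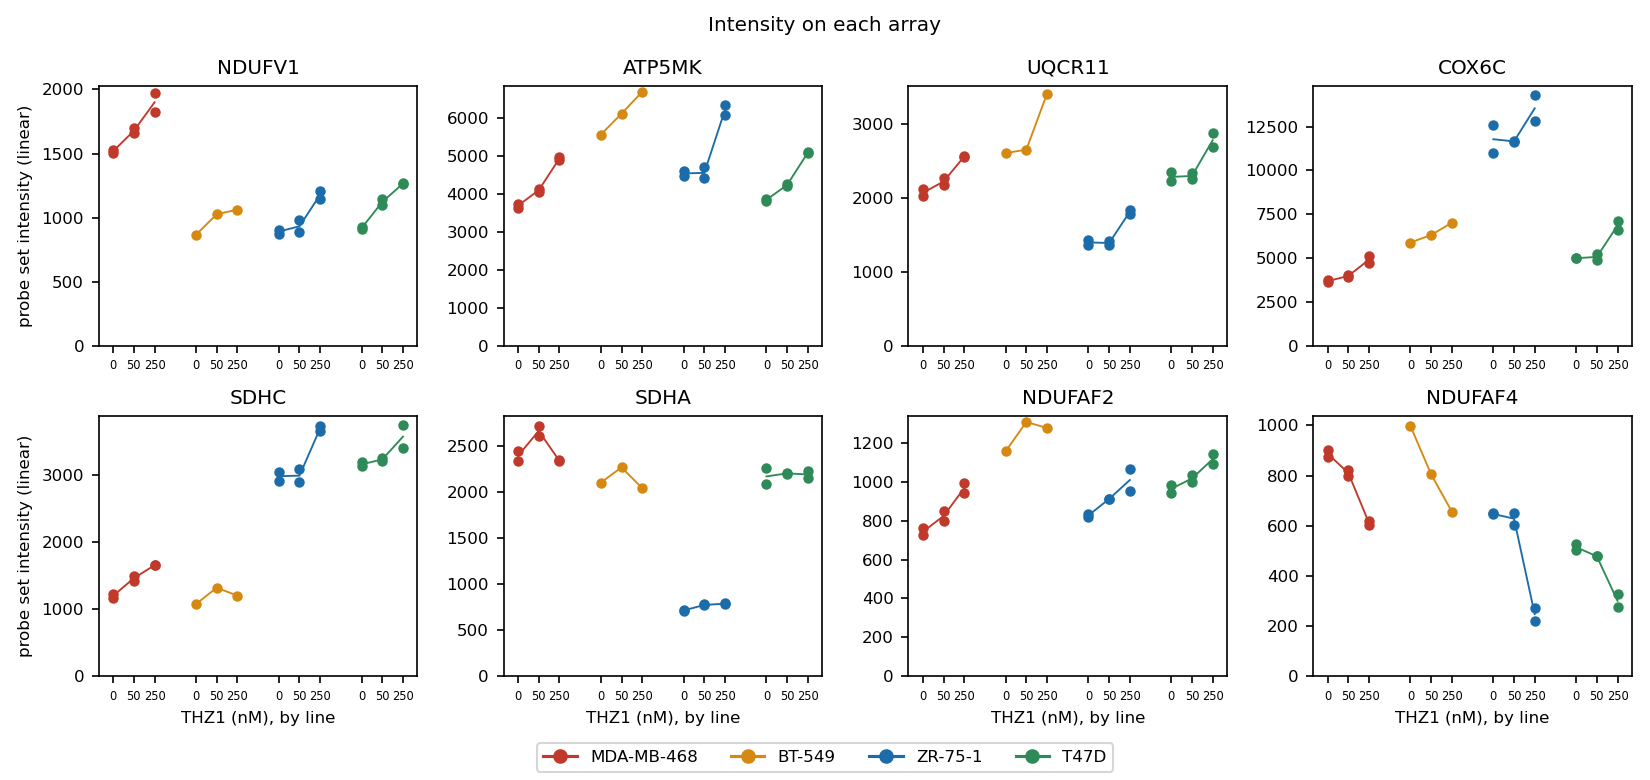
Linear probe set intensity of 8 members on each of the 21 arrays (points), by line (colour) and THZ1 dose (0 is DMSO); lines join group means, and axes start at 0. NDUFV1, ATP5MK and UQCR11 lie higher at 250 nM than with DMSO in every line and NDUFAF4 lies lower, while the lines differ more in SDHA, SDHC and COX6C than the doses do.

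Complex III, which passes electrons from coenzyme Q to cytochrome c, had 7 of 9 genes higher in MDA-MB-468, all 9 in ZR-75-1 and 4 in T47D. The shares of all genes higher in these lines were 9.54%, 9.93% and 9.61%. UQCR11, a small subunit, read 2112 and 2021 with DMSO and 2566 and 2547 at 250 nM in MDA-MB-468. In ZR-75-1 it read 1362 and 1429.9 with DMSO and 1838 and 1784 at 250 nM, in T47D 2219 and 2342 with DMSO and 2867 and 2685 at 250 nM and in BT-549 2603 with DMSO and 3406 at 250 nM. The groups did not overlap, and the changes were 0.31 ± 0.05, 0.38 ± 0.05 and 0.28 ± 0.05. Its dim second probe set (mean log2 6.90) changed by 0.27 in MDA-MB-468 but by -0.72 in ZR-75-1 and -0.36 in T47D, where the mean of both probe sets changed by -0.17 and -0.040.

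CYC1, cytochrome c1, read 2292 and 2251 with DMSO and 2633 and 2618 at 250 nM in MDA-MB-468, 4571 and 4712 with DMSO and 5465 and 5663 at 250 nM in ZR-75-1, 3899 and 3787 with DMSO and 4336 and 4290.1 at 250 nM in T47D and 4837 with DMSO and 5608 at 250 nM in BT-549. It was higher without overlap in the replicated lines, by 0.21 ± 0.05, 0.26 ± 0.05 and 0.17 ± 0.05. All 3 calls ended under quantile normalization (0.12, 0.08 and 0.10), and the T47D call also without DMSO array 2 (0.15) or 250 nM array 1 (0.16). The core proteins UQCRC1 and UQCRC2 changed by 0.22 ± 0.07 and 0.23 ± 0.06 in MDA-MB-468, 0.26 ± 0.07 and 0.19 ± 0.06 in ZR-75-1, and 0.074 ± 0.07 and 0.17 ± 0.06 in T47D, UQCRC1 not being called there (adjusted p = 0.464). Both MDA-MB-468 calls were lost without DMSO array 1 (0.14 for UQCRC1 and 0.17 for UQCRC2), and that of UQCRC1 also without 250 nM array 2 (0.17). The ZR-75-1 calls ended without DMSO array 2 for UQCRC1 (0.20) and DMSO array 1 for UQCRC2 (0.17), and the T47D call of UQCRC2 without either DMSO array (0.18 and 0.17) or 250 nM array 1 (0.15).

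UQCRHL, a near copy of the hinge protein gene UQCRH whose probes may read both, had the largest rise of any member, 0.80 ± 0.32 in ZR-75-1 (adjusted p = 0.0473). Its arrays there read 1505 and 1598 with DMSO, 2404 and 948 at 50 nM and 3198 and 2285 at 250 nM, so that the arrays at 50 nM lay on either side of those with DMSO. That call was lost on leaving out any of 11 of the 18 arrays (0.56 to 0.84). UQCRB, a ubiquinone-binding subunit, was higher in ZR-75-1 (0.46 ± 0.17, adjusted p = 0.0378), a call lost without DMSO array 2 (0.25) or 250 nM array 1 (0.23), and changed by -0.10 ± 0.17 in T47D without a call.

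Complex IV, cytochrome c oxidase, had 10 of 14 tested genes higher in MDA-MB-468, 11 in ZR-75-1 and 7 in T47D, and none lower. The shares of all genes were 9.54%, 9.93% and 9.61% higher and 30.3%, 42.8% and 33.7% lower. COX6C, a small nuclear-encoded subunit, read 3634 and 3731 with DMSO and 5125 and 4694 at 250 nM in MDA-MB-468. In T47D it read 4982 and 4998 with DMSO and 6590.2 and 7113 at 250 nM, in ZR-75-1 10970.0 and 12583 with DMSO and 12794 and 14279 at 250 nM and in BT-549 5887 with DMSO and 7017 at 250 nM. The changes were 0.41 ± 0.07 in MDA-MB-468, 0.46 ± 0.07 in T47D and 0.20 ± 0.07 in ZR-75-1, where the adjusted p was 0.0252. A second probe set of like brightness gave 0.31, 0.31 and 0.33, so the order of the lines depends on the probe set. In ZR-75-1 the call ended without DMSO array 1 (0.10) or 250 nM array 2 (0.12), and the value was -0.021 under quantile normalization.

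COX4I1, the common form of subunit 4, read 5482 and 5470.1 with DMSO and 6666 and 6568 at 250 nM in MDA-MB-468, 6593 and 6842 with DMSO and 8059.8 and 8343 at 250 nM in ZR-75-1 and 6282 and 6200.3 with DMSO and 6927 and 6930.5 at 250 nM in T47D, without overlap. The changes were 0.27 ± 0.04, 0.29 ± 0.04 and 0.15 ± 0.04, and 0.14 in BT-549. A second bright probe set moved alike (0.23, 0.28 and 0.17), whereas a dim one (mean log2 6.45) changed by -0.45, -0.60 and -0.54, which takes the mean of the 3 probe sets to 0.018, -0.012 and -0.073. The T47D call was lost without DMSO array 2 (0.14). COX5B, a zinc-binding subunit, was higher by 0.29 ± 0.07, 0.35 ± 0.07 and 0.18 ± 0.07, the last at an adjusted p of 0.0435 and lost on leaving out 7 of the 18 arrays (0.13 to 0.21). Its MDA-MB-468 call ended without DMSO array 1 (0.20) or 250 nM array 2 (0.21).

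COX5A, another nuclear-encoded subunit, was higher in ZR-75-1 (0.38 ± 0.08) and MDA-MB-468 (0.25 ± 0.08) and not in T47D (-0.030 ± 0.08, adjusted p = 0.803). The MDA-MB-468 arrays at 250 nM read 4272 and 5230.0 against 3978 and 3955 with DMSO, and without array 2 the change was 0.11 and not called, the call being lost without either DMSO array too (both 0.25 to 0.26). COX7A2, the widely expressed form of subunit 7A, was higher in ZR-75-1 (0.39 ± 0.08) and not called in MDA-MB-468 (0.18 ± 0.08, adjusted p = 0.0711) or T47D (0.17 ± 0.08, adjusted p = 0.0819). COX7A2L, a factor that joins complexes III and IV into supercomplexes, was higher by 0.18 ± 0.05, 0.13 ± 0.05 and 0.14 ± 0.05. Each of its calls ended on leaving out at least 1 array: DMSO array 1 in MDA-MB-468 (0.14), 5 arrays in ZR-75-1 (0.10 to 0.14) and any of the 4 in T47D (0.11 to 0.17).

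The tissue forms of complex IV subunits were dim. COX4I2, COX7B2 and COX8C did not pass the filter, with 29.2 to 46.5, 5.89 to 40.2 and 15.0 to 36.2 over the 21 arrays. Their mean log2 was 5.23, 3.72 and 4.70, beside an array background of log2 4.56 to 4.97. COX7B2 had group means of 35.9 to 36.4 in T47D and 6.12 to 11.9 in the other lines. COX6A2 read 53.7 to 89.7 and COX6B2 45.4 to 62.5, and neither was called at 250 nM. COX7A1, the muscle form of subunit 7A, read 114, 134 and 143 in BT-549 and at most 46.98 on the arrays of the other lines. It passed the filter (intensity 57.4) only through BT-549, yet it is counted among the 88 members in every line. It changed by -0.0090, 0.00089 and 0.08 in the replicated lines, in the same order as above, with SE of 0.29.

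Complex V, ATP synthase, had 15 of 18 tested genes higher in MDA-MB-468, 16 in ZR-75-1 and 10 in T47D, and none lower. Of all genes, 9.54%, 9.93% and 9.61% were higher and 30.3%, 42.8% and 33.7% lower. With the 4 lines as units all 18 were higher, against 9.48% of all genes. In MDA-MB-468 the small membrane subunit gene ATP5MK read 3645 and 3752 with DMSO, 4142 and 4061 at 50 nM and 4903 and 4978 at 250 nM. ZR-75-1 read 4477 and 4615 with DMSO, 4703 and 4418 at 50 nM and 6088 and 6360.3 at 250 nM, and T47D 3824 and 3877 with DMSO, 4278 and 4209 at 50 nM and 5077 and 5113 at 250 nM. BT-549 read 5568, 6124 and 6700.1. All arrays at 250 nM lay above all of the same line at 50 nM and with DMSO, with changes of 0.42 ± 0.05, 0.45 ± 0.05 and 0.40 ± 0.05 and limma adjusted p of 1.75e-06, 3.79e-07 and 2.94e-06.

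The catalytic beta subunit gene ATP5F1B read 6348 and 6206 with DMSO and 7276 and 6953 at 250 nM in MDA-MB-468, 6938 and 7495 with DMSO and 8607 and 9074 at 250 nM in ZR-75-1, 8319 and 8124 with DMSO and 9560.3 and 9761 at 250 nM in T47D and 6159.7 with DMSO and 6936 at 250 nM in BT-549. It was higher without overlap, by 0.18 ± 0.05, 0.29 ± 0.05 and 0.23 ± 0.05, and each call ended under quantile normalization (0.09, 0.08 and 0.10). The MDA-MB-468 call was also lost without DMSO array 2 (0.16) or 250 nM array 1 (0.15). The alpha subunit gene ATP5F1A was called only in ZR-75-1 (0.22 ± 0.07, adjusted p = 0.0130), a call lost without DMSO array 1 (0.21) or 250 nM array 1 (0.14). In MDA-MB-468 and T47D ATP5F1A changed by 0.17 ± 0.07 and 0.069 ± 0.07, and in BT-549 by 0.19. ATP5PB, of the peripheral stalk, was called in no line (0.10 ± 0.05, 0.10 ± 0.05 and 0.12 ± 0.05), and it was -0.11 in ZR-75-1 under quantile normalization. That rests on its brightest probe set. A second bright ATP5PB probe set (mean log2 11.88) gave 0.22, 0.27 and 0.31 in the order MDA-MB-468, ZR-75-1, T47D. Dim ones with means of log2 5.89 and 6.14 gave -0.19 and -0.50 in T47D. ATP5ME, a membrane subunit, changed by 0.39 ± 0.08, 0.43 ± 0.08 and 0.046 ± 0.08, the last without a call (adjusted p = 0.696). A second ATP5ME probe set of like brightness gave 0.18, 0.43 and 0.054.

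The 8 complex I assembly factors did not share one direction. In MDA-MB-468, 3 were higher and 2 lower, in ZR-75-1 2 and 4, and in T47D 1 and 1, with medians of 0.03, -0.14 and -0.08. The shares lower were thus 25%, 50% and 12.5%, against 30.3%, 42.8% and 33.7% of all genes, and the shares higher 37.5%, 25% and 12.5%, against 9.54%, 9.93% and 9.61%. NDUFAF2, a chaperone of late complex I assembly, was the member of this group that was higher in all 3 lines, by 0.38 ± 0.06, 0.29 ± 0.06 and 0.21 ± 0.06, though the T47D call was lost without DMSO array 2 or 250 nM array 2 (both 0.18). NDUFAF3, which acts early with NDUFAF4, was higher in MDA-MB-468 (0.28 ± 0.08) and ZR-75-1 (0.31 ± 0.08) and at -0.014 ± 0.08 in T47D without a call. Its MDA-MB-468 call was lost without any 1 of the 4 arrays concerned (0.28 each time), and that in ZR-75-1 without 250 nM array 2 (0.25). A second NDUFAF3 probe set of like brightness (mean log2 9.36) gave 0.31, 0.18 and 0.21, so the T47D value depends on the probe set.

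NDUFAF4, the partner of NDUFAF3, fell in the 3 replicated lines, was lower in BT-549, and is the only member that changed 2-fold. ZR-75-1 read 645 and 649 with DMSO, 652 and 604 at 50 nM and 273 and 221 at 250 nM. In MDA-MB-468 it read 902 and 873 with DMSO, 798 and 821 at 50 nM and 601 and 619 at 250 nM, and in T47D 527 and 502 with DMSO, 478 and 478 at 50 nM and 274 and 327 at 250 nM. BT-549 read 997, 804 and 656. Both arrays at 250 nM lay below all others of their line, and in ZR-75-1 the mean went from 647 ± 2.79 to 247 ± 36.5 (SD, n = 2), a 2.63-fold fall. The changes were -0.54 ± 0.09, -1.40 ± 0.09 and -0.78 ± 0.09 (limma adjusted p = 0.000175, 2.06e-09 and 4.10e-06) and -0.61 in BT-549. A second probe set of like brightness changed by -0.55, -1.45, -0.94 and -0.67 in the order MDA-MB-468, ZR-75-1, T47D, BT-549.

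The other assembly factors called, chosen after their values were seen, were NDUFAF1, lower in MDA-MB-468 (-0.22 ± 0.07), NDUFAF5, NDUFAF6 and NDUFAF7, lower in ZR-75-1 (-0.38 ± 0.11, -0.25 ± 0.06 and -0.30 ± 0.10), and NDUFAF8, higher in MDA-MB-468 (0.37 ± 0.14). The 6 members lower in at least 1 line (6.82% of those tested) were NDUFV3, NDUFAF1, NDUFAF4, NDUFAF5, NDUFAF6 and NDUFAF7. The share of all genes lower in at least 1 line was not counted, so this count is not read against all genes.

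At 50 nM fewer members passed the test. MDA-MB-468 had 14 members higher and none lower, against 4.42% of all genes higher and 14.6% lower (35 and 1 at an unadjusted limma p under 0.05), with a member median of 0.12 against -0.06. These included SDHC (0.29 ± 0.06, adjusted p = 0.00177), NDUFS1 (0.27 ± 0.07), NDUFB2 (0.22 ± 0.07), UQCRC2 (0.19 ± 0.06), ATP5MK (0.15 ± 0.05) and NDUFA3 (0.15 ± 0.05). The first 2 of these values were lower on other probe sets, 0.12, 0.057 and 0.045 for SDHC and 0.13, 0.062 and 0.11 for NDUFS1. The count was 2 without DMSO array 1 and 3 without either 50 nM array, 42 with median centring and 6 after quantile normalization. The share of 4.42% is for the main setting, and none is given for these other counts. ZR-75-1 had 1 member higher, NDUFS6 (0.19 ± 0.05, adjusted p = 0.0343), against 2.79% of all genes, and none lower, against 5.68%. T47D had 1, NDUFV1 (0.29 ± 0.06, adjusted p = 0.00556), against 1.99%, and none lower, against 7.56%. NDUFS6 was named after its value was seen. At an unadjusted p under 0.05, ZR-75-1 had 12 members higher and 1 lower and T47D 11 and 0. No member was called with the 4 lines as units, where 0.182% of all genes were higher and 0.316% lower in limma. At an unadjusted limma p under 0.05, 27 members were higher there. No share of all genes was counted at an unadjusted p, so the shares here do not stand against the counts at that threshold. Both arrays at 50 nM lay above both DMSO arrays for 62 members in MDA-MB-468, 31 in ZR-75-1 and 37 in T47D (22.8%, 22.4% and 21.8% of all genes), and below for 4, 5 and 7 (39%, 25.1% and 33.8%). In BT-549, 80 of 88 members lay above DMSO, against 43.8% of all genes, with a median of 0.12, and none changed 2-fold (0.174% of all genes higher, 3.24% lower). NDUFAF4 was called in no line at 50 nM (-0.13 ± 0.09, -0.043 ± 0.09 and -0.11 ± 0.09).

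The size of the change was compared between each pair of replicated lines. Between MDA-MB-468 and ZR-75-1, 4 members had a lower and 2 a higher change at 250 nM in MDA-MB-468, against 3.09% and 19.9% of all genes. Between ZR-75-1 and T47D, 10 had a higher and 1 a lower change in ZR-75-1, against 2.44% and 19.8%. Between MDA-MB-468 and T47D 1 was higher and none lower, against 6.43% and 8.11%. At an unadjusted limma p under 0.05 that pair of lines had 15 and 0. The counts were 2 higher and 8 lower for MDA-MB-468 minus ZR-75-1, and 18 and 2 for ZR-75-1 minus T47D. No share of all genes was counted at that threshold. NDUFAF4 fell further in ZR-75-1 than in MDA-MB-468 (difference 0.85 ± 0.13, adjusted p = 0.000191) and than in T47D (-0.61 ± 0.13, adjusted p = 0.00277). The changes of COX5A and ATP5ME, neither of them called in T47D, were higher in ZR-75-1 than in T47D by 0.41 ± 0.11 and 0.39 ± 0.12. These ZR-75-1 and T47D calls share treated and control arrays with the tests within each line, and they ended without ZR-75-1 DMSO array 2 (0.35 and 0.32), among other arrays.

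Many members differed between lines without treatment, as did many genes of the array. With DMSO, 42 members were lower and 26 higher in MDA-MB-468 than in ZR-75-1, against 30.5% and 35.5% of all genes, with 10 and 5 at least 2-fold (9.81% and 12.5% of all genes). Against T47D, MDA-MB-468 had 50 members lower and 20 higher (36.8% and 30.8% of all genes), with 16 and 3 at least 2-fold (13.4% and 11.1%). ZR-75-1 had 39 lower and 30 higher than T47D (37.1% and 25.9%), with 10 and 1 at least 2-fold (12.4% and 7.2%). At 2-fold or more, the share of members higher was under that of all genes in each pair of lines. The share of members lower was near or above it. The ZR-75-1 and T47D split was 31 and 31 with median centring, for which no share of all genes is given.

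SDHA had the widest gap between MDA-MB-468 and ZR-75-1, 1.75 ± 0.05 (a 3.35-fold difference), and it was lower in ZR-75-1 than in T47D by a log2 difference of -1.60 ± 0.05. The order of its DMSO arrays was ZR-75-1 (708 and 717), then BT-549 (2099), T47D (2253 and 2080.4) and MDA-MB-468 (2337 and 2444). The BT-549 array lay between the T47D arrays, and the ZR-75-1 arrays lay far below all others. SDHC ran otherwise, with 1074 in BT-549, 1169.7 and 1225 in MDA-MB-468, 2916 and 3045 in ZR-75-1 and 3189.6 and 3126 in T47D, a difference of -1.32 ± 0.06 between MDA-MB-468 and ZR-75-1 and of -1.40 ± 0.06 between MDA-MB-468 and T47D. COX6C was higher in ZR-75-1 than in MDA-MB-468 (-1.67 ± 0.07) and T47D (1.24 ± 0.07), and NDUFB8 was lower in ZR-75-1 and MDA-MB-468 than in T47D (-1.29 ± 0.05 and -1.17 ± 0.05). Named after their values were seen, ATP5MC2, a subunit of the rotating ring, was lower in MDA-MB-468 than in ZR-75-1 (-1.35 ± 0.05) and T47D (-1.93 ± 0.05), and NDUFB5 lower in MDA-MB-468 and ZR-75-1 than in T47D (-1.61 ± 0.07 and -1.67 ± 0.07).

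**Figure D4:**
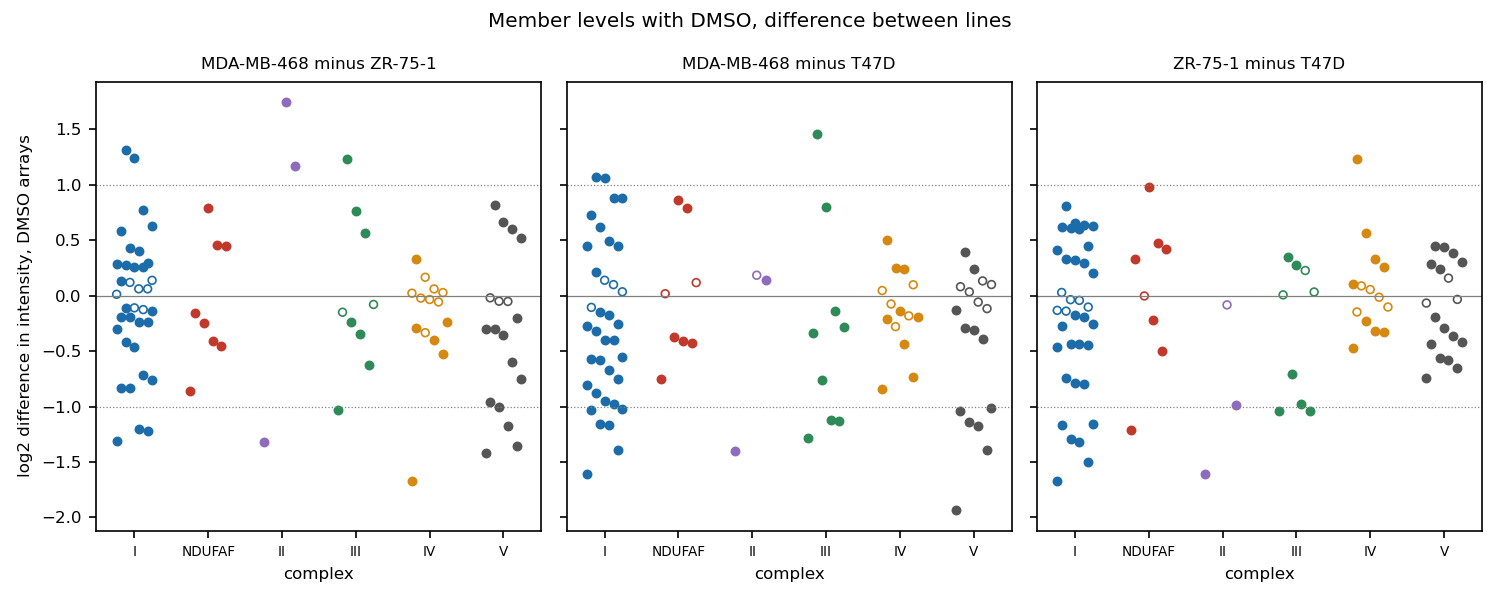
Log2 difference in intensity between lines on the DMSO arrays for each member tested, by complex (I, subunits; NDUFAF, complex I assembly factors; II to V). Filled points passed limma at an adjusted p under 0.05, open points did not, and dotted lines mark a 2-fold difference. Differences reach 1.75 for SDHA (MDA-MB-468 minus ZR-75-1) and -1.93 for ATP5MC2 (MDA-MB-468 minus T47D), beyond the range of the changes with THZ1.

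Lists of other genes that serve mitochondria or form large complexes were described at 250 nM, all values from here on being in the order MDA-MB-468, ZR-75-1, T47D. Their counts stand against 30.3%, 42.8% and 33.7% of all genes lower and 9.54%, 9.93% and 9.61% higher. Of 17 regulators of mitochondrial genes, 10, 14 and 10 were lower (58.8%, 82.4% and 58.8%) and 1, 1 and 2 higher. Among these PPRC1, a coactivator of mitochondrial gene expression, changed by -1.98 ± 0.09, -2.38 ± 0.09 and -1.35 ± 0.09, and the mitochondrial helicase TWNK by -1.08 ± 0.08, -2.05 ± 0.08 and -1.02 ± 0.08. TEFM, a mitochondrial transcription elongation factor, and MTERF1, a mitochondrial transcription termination factor, were lower in each line (-1.44, -1.82 and -1.18, and -1.94, -2.74 and -1.35).

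Assembly factors outside the NDUFAF names were mixed. For complex II, SDHAF1 fell by 2.002 ± 0.09, 2.74 ± 0.09 and 1.35 ± 0.09 and SDHAF2 by 0.80 ± 0.06, 1.25 ± 0.06 and 0.44 ± 0.06 on the log2 scale, and 2, 2 and 3 of 4 genes were lower. SDHAF4 was the third in T47D (-0.35), and SDHAF3 was not called (-0.25, 0.61 and 0.16). For complex IV, 5, 10 and 8 of 26 genes were lower (19.2%, 38.5% and 30.8%, each under the share of all genes) and 5, 7 and 5 higher. Of those lower, SCO2, a copper chaperone, changed by -1.36, -0.79 and -0.52, COX19 by -0.50, -1.28 and -0.94, COA7 by -0.97, -1.27 and -0.58 and FASTKD2, a mitochondrial RNA-binding protein, by -0.77, -1.09 and -0.64, all called. For complex I, 1, 2 and 1 of 11 genes were lower and 7, 1 and 2 higher, TMEM186 changing by -2.22, -2.15 and -1.32 and NUBPL, an iron-sulphur carrier, by 0.54, 0.20 and -0.26, called in MDA-MB-468 alone. TMEM126A was 0.35 in MDA-MB-468, -0.32 in ZR-75-1 and 0.06 in T47D, where it was not called, and TIMMDC1 was called in MDA-MB-468 (0.27) alone.

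For complex V, TMEM70 was lower in each line (-0.86, -1.28 and -0.51) and ATPAF1 higher in MDA-MB-468 and ZR-75-1 (0.40 and 0.35), while ATPAF2 was not called. Of 6 complex III assembly genes, 0, 2 and 1 were lower and 2, 1 and 2 higher. Among these UQCC2 was higher (0.25, 0.21 and 0.13) and LYRM7 lower in ZR-75-1 and T47D (-0.52 and -0.43). UQCC3 was lower in ZR-75-1 alone (-0.35), and TTC19 was higher in T47D alone (0.23). Of 13 genes for cytochrome c and coenzyme Q synthesis, 2, 7 and 3 were lower (15.4%, 53.8% and 23.1%, above the share of all genes only in ZR-75-1) and 1, 0 and 0 higher, COQ7 by -0.22, -0.26 and -0.35. HCCS, which attaches haem to cytochrome c, was lower in MDA-MB-468 and ZR-75-1 (-0.21 and -0.31), and PDSS1 and COQ9 were lower in ZR-75-1 alone (-0.67 and -0.34).

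Of 16 tricarboxylic acid cycle genes, 6, 7 and 5 were higher and 2, 2 and 4 lower. MDH2, malate dehydrogenase, was higher (0.25, 0.28 and 0.18), as were IDH2 (0.18, 0.30 and 0.23) and, in MDA-MB-468 and ZR-75-1, DLD (0.15 and 0.25), and DLAT of the pyruvate dehydrogenase complex was lower (-0.24, -0.47 and -0.25). Among large complexes, cytosolic ribosomal protein genes also rose for the most part, with 41, 58 and 50 of 69 higher and 0, 1 and 1 lower and medians of 0.17, 0.26 and 0.19. RPS4X was 0.21, 0.34 and 0.15 and RPL36 0.23, 0.39 and 0.31, whereas RPL22L1 was -0.49 in T47D and RPL7L1 -0.51 in ZR-75-1. Of 74 mitochondrial ribosomal protein genes, 18, 9 and 3 were higher (24.3%, 12.2% and 4.05%) and 16, 30 and 26 lower (21.6%, 40.5% and 35.1%), the shares lower being near or under those of all genes. Among those lower, MRPS30 changed by -0.99, -1.44 and -0.50, MRPL10 by -0.78, -1.23 and -0.61, MRPL46 by -0.85, -1.14 and -0.78 and MRPS26 by -0.26, -0.78 and -0.34. The proteasome had 13, 15 and 7 of 33 genes higher and 1, 3 and 4 lower, with PSMB3 at 0.26, 0.23 and 0.23, PSMB7 at 0.24, 0.16 and 0.14, PSMD9 at 0.17, 0.21 and 0.30 and PSMD5 at -0.35, -0.96 and -0.40.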

How the data were processed

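Per the labels' protocols, spike-in RNA was added by cell number, and equal amounts of total RNA were primed with oligo(dT), amplified and labelled. The authors deposited linear intensity values, 49395 probe sets by 21 arrays; MAS5 made them, per the submitters' processing notes, and the scaling between arrays is not stated there. If the equal input or that scaling hides a change in RNA per cell, differences are not per cell. Of the probe sets, 44994 have 1 gene symbol, 1832 several (not used to name a gene) and 2569 none listed. Each gene took its probe set with the highest mean, values under 1 were set to 1, log2 was taken with no further scaling, and 12644 of 18132 genes whose highest group mean reached log2 5.84 (intensity 57.4) were tested. limma 3.58.1 in R 4.3.3 (lmFit, eBayes with trend) fitted 9 group means on 18 arrays (9 residual, 6.18 prior degrees of freedom), and, for the 4-line comparison, 12 means (1 per line and dose) with line as a factor (6 and 3.17). P-values were adjusted by Benjamini-Hochberg over all genes within a contrast and called under 0.05, and the fit was tested on simulated data. A p that misses this threshold does not show that values did not differ. A value "a ± b" is a log2 difference with its SE. The number of arrays limits the precision. Array background is the mean log2 of 23 background probe sets.

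The members, the gene lists and the naming rule were chosen with earlier results of these data known. The rule names the complex II genes and other fixed subunits, the highest and lowest member of each group per line at 250 nM, members called at 2-fold or more, tissue isoforms, and up to 4 genes per list by moderated statistic. Promoter sequences were matched by symbol. Alternatives were other scalings, filters, floors, probe set choices, eBayes without trend, a replicate block and leaving out each array or line.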

Additional observations from a re-analysis of the deposited data

Results flagged for a closer look

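Differences between lines in the change at 250 nM were tested with limma, at an adjusted p under 0.05. The tests picked out 6 members for MDA-MB-468 minus ZR-75-1, 1 for MDA-MB-468 minus T47D and 11 for ZR-75-1 minus T47D. By direction, 4, 0 and 1 members had a lower and 2, 1 and 10 a higher change in the first line named. Among all genes, 3.09%, 8.11% and 19.8% had a lower and 19.9%, 6.43% and 2.44% a higher change there. NDUFAF4, an assembly factor of complex I, had the widest gaps: its change was 0.85 higher in MDA-MB-468 than in ZR-75-1 (-0.54 against -1.40), and the ZR-75-1 minus T47D difference was -0.61 (-1.40 against -0.78). Both kept their call on leaving out each array, and the second was -0.32 and not called with the mean of each gene's probe sets.

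The change of NDUFB8 in MDA-MB-468 minus that in ZR-75-1 was -0.28, a call lost without ZR-75-1 DMSO array 1 (-0.22) or 250 nM array 1 (-0.24), and a dimmer NDUFB8 probe set changed by 0.36 and 0.39 in these lines. The change of SDHC was 0.29 higher in MDA-MB-468 than in T47D, a call lost without any of 4 arrays (0.22 to 0.29). Here 3 other bright SDHC probe sets changed by 0.25, 0.27 and 0.23 in MDA-MB-468 and 0.20, 0.17 and 0.26 in T47D. Between ZR-75-1 and T47D the differences were 0.39 for ATP5ME, 0.41 for COX5A and 0.27 for NDUFV3, lost without any of 5, 2 and 5 arrays.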

How the results depend on the processing

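Counts are of members called higher or lower. No share of all genes is given beside them in this section, and at 250 nM that share moved with the scaling. Counts of members higher at 250 nM in MDA-MB-468 and ZR-75-1 stayed within 1.5 times under the settings tried, as did those of the DMSO levels, and that in T47D moved to 72 with the trimmed mean. Members lower at 250 nM went to 1 in MDA-MB-468 (median centring, quantile normalization, trimmed mean), to 1, 2 and 1 in ZR-75-1 with these settings, to 1 in T47D with median centring, and to 1 over 4 lines with median centring, the trimmed mean or no filter. At 50 nM, members higher in MDA-MB-468 were 42 with median centring, 6 with quantile normalization and 5 without trend. In ZR-75-1 they were 0 with the 3 scalings, without a filter and without trend, 2 with a filter at log2 7 and 3 (1 lower) with the mean of probe sets. In T47D they were 3 with quantile normalization, 4 with the trimmed mean and 2 with a filter at log2 7.

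For differences of the change, MDA-MB-468 minus ZR-75-1 gave 1 higher and 0 lower with median centring, 4 higher with quantile normalization, and 11, 2 and 1 lower with the trimmed mean, no filter and no trend. MDA-MB-468 minus T47D gave 5 higher and 1 lower with quantile normalization, 0 higher with the trimmed mean or without trend, 2 with a floor of 16, and 3 with a filter at log2 7 or the mean of probe sets. ZR-75-1 minus T47D gave 17 and 4 higher with the trimmed mean and no trend, and 3 lower with quantile normalization. The replicate numbers do not pair the arrays (correlations of deviations -0.22 to 0.29): with a replicate block, members higher at 250 nM were 65, 71 and 45 in the 3 lines, and the 1 count that moved was that of MDA-MB-468 minus T47D, to 2.

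Leaving out arrays in turn, members higher and lower ranged over 2 to 16 and 0 to 1 (MDA-MB-468, 50 nM), 45 to 66 and 1 to 2 (MDA-MB-468, 250 nM), 0 to 2 higher (ZR-75-1, 50 nM), 61 to 71 and 2 to 4 (ZR-75-1, 250 nM), 0 to 2 and 0 to 1 (T47D, 50 nM), and 29 to 47 higher (T47D, 250 nM). For MDA-MB-468 minus ZR-75-1 they were 2 to 3 and 1 to 3, for MDA-MB-468 minus T47D 0 to 7 higher, for ZR-75-1 minus T47D 2 to 10 and 1 to 2, and over lines 55 to 68 and 1 at 250 nM.

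Directions reversed for COX4I1 and UQCR11 with the mean of probe sets in ZR-75-1 (-0.012 and -0.17) and T47D (-0.073 and -0.040), for UQCR11 in MDA-MB-468 minus ZR-75-1 (0.46), for COX4I1 in ZR-75-1 minus T47D with DMSO (-0.11, and -0.046 by quantile normalization), for NDUFV3 in ZR-75-1 (0.23 with median centring, 0.19 with the trimmed mean), and with quantile normalization for COX6C (-0.021) and ATP5PB (-0.11) in ZR-75-1 and ATP5PB over 4 lines (-0.070). The cause was not tested, beyond the dim probe sets described for COX4I1 and UQCR11. Of 2100 comparisons of named members with other settings, 1980 kept direction and side of the threshold, and of 3480 that left out an array or line, 3350 did.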
